A study of Arabidopsis thaliana with 21 samples.

Results

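The HY5 K87R line of Arabidopsis thaliana, labelled 35S:HY5K87R-GFP/hy5, was compared with the hy5 mutant in growth light. The line carries a transgene in which the 35S promoter, a viral promoter active in most plant cells, drives HY5 fused to green fluorescent protein (GFP), with lysine 87 of HY5 changed to arginine. Its 3 libraries and the 3 hy5 libraries were taken by genotype and light treatment from the 21 libraries of the series. The spread between replicates was estimated from the 15 growth-light libraries, which also hold 3 each of the K87K line (35S:HY5K87K-GFP/hy5, the unchanged residue), the K87Q line (35S:HY5K87Q-GFP/hy5, glutamine at the same position) and Col-0, the wild type (WT). Of the 32833 genes counted, 19679 passed a filter on low counts and were tested.

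Whole seedlings were 7 days old, grown on plates at 100 µmol m-2 s-1 and sampled 2 h into the control condition, without the step to stronger light. The series description puts K87R in the hy5-2 allele and K87K and K87Q in hy5-1, and the labels of the hy5 samples name no allele. The samples of a construct carry a single genotype label. The substitution, the transgenic line, the mutant background and any handling particular to a genotype therefore cannot be told apart in this comparison. The titles call the replicates biological, and the time of day of sampling is not given in the sources used here. In bulk seedlings, fewer cells of a type and less RNA per cell cannot be told apart.

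HY5 (ELONGATED HYPOCOTYL 5) is a basic leucine zipper transcription factor that acts downstream of the plant photoreceptors. In darkness the COP1/SPA ubiquitin ligase marks it for degradation, and in light it accumulates, binds DNA elements with an ACGT core and promotes flavonoid, chlorophyll and photosynthesis genes together with B-box (BBX) partner proteins. Acetylation neutralises the positive charge of a lysine. Arginine keeps that charge and cannot be acetylated, whereas glutamine is uncharged and is often used to mimic acetyl-lysine. HY5 (AT5G11260, chr5:3593335-3595073, minus strand, build TAIR10) has 4 coding exons in the transcript model AT5G11260.1, which encodes 168 residues over a coding length of 507 bases. Codon 87 is AAA, lysine, in coding exon 2, at chr5:3594310-3594312. Capitals mark it here within 30 coding bases on each side, read 5′ to 3′ on the minus strand with the exon junction joined, from the RefSeq assembly TAIR10.1. The K87R change replaces this codon in the transgene, and the codon used there is not given in the sources used here.
HY5 codon 87: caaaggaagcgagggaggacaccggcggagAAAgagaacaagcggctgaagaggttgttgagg

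The 3 K87R libraries held 7283290, 13856897 and 12868961 counts and the 3 hy5 libraries 19811935, 14208669 and 14432305, within a growth-light range of 7283290 to 22101539. Levels are given as CPM, counts scaled to a common library size, after TMM scaling, which sets library sizes on the assumption that most genes do not change. The Spearman correlation across genes was 0.973 to 0.983 among K87R libraries, 0.981 to 0.985 among hy5 libraries and 0.865 to 0.877 between the genotypes. The 10 most abundant genes of a library held 7.36% to 7.87% of its counts in K87R and 15.2% to 15.6% in hy5. TMM factors were 1.41 to 1.48 in K87R and 0.738 to 0.749 in hy5. When total counts alone set the library sizes, the median log2 fold change of K87R over hy5 moved up by 0.96. Changes below are relative to the TMM scale. The total-count value is given beside the TMM value for named genes whose TMM call was lost or whose sign turned with it. Plastid-encoded counts were 0.104% to 1.41% of a K87R library and 0.649% to 4.15% of a hy5 library.

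HY5 transcript was high in every K87R library. HY5 counts, which do not separate the HY5-GFP transcript from the endogenous gene, came to 435, 346 and 314 CPM in the K87R libraries, against 0.0679, 0.376 and 1.31 CPM in hy5. The groups were far apart and did not overlap (log2 fold change 9.39 ± 0.47, adjusted p = 1.02e-08, edgeR quasi-likelihood test with Benjamini-Hochberg adjustment). HY5 averaged 302 ± 76.5 CPM in K87K, 263 ± 20.4 CPM in K87Q and 9.17 ± 1.56 CPM in WT (SD, n = 3 libraries each). K87R was above WT by 5.31 ± 0.35 on the log2 scale, adjusted p = 1.53e-07. Its difference from K87K was 0.27 ± 0.28, adjusted p = 0.446, and from K87Q 0.47 ± 0.28, adjusted p = 0.253, neither past the threshold of 0.05. HYH, the closest homologue of HY5, was lower in K87R, at 1.899, 1.71 and 1.43 CPM in K87R and 6.92, 9.402 and 8.73 CPM in hy5 (log2 fold change -2.32 ± 0.30, adjusted p = 7.30e-08).

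**Figure D1:**
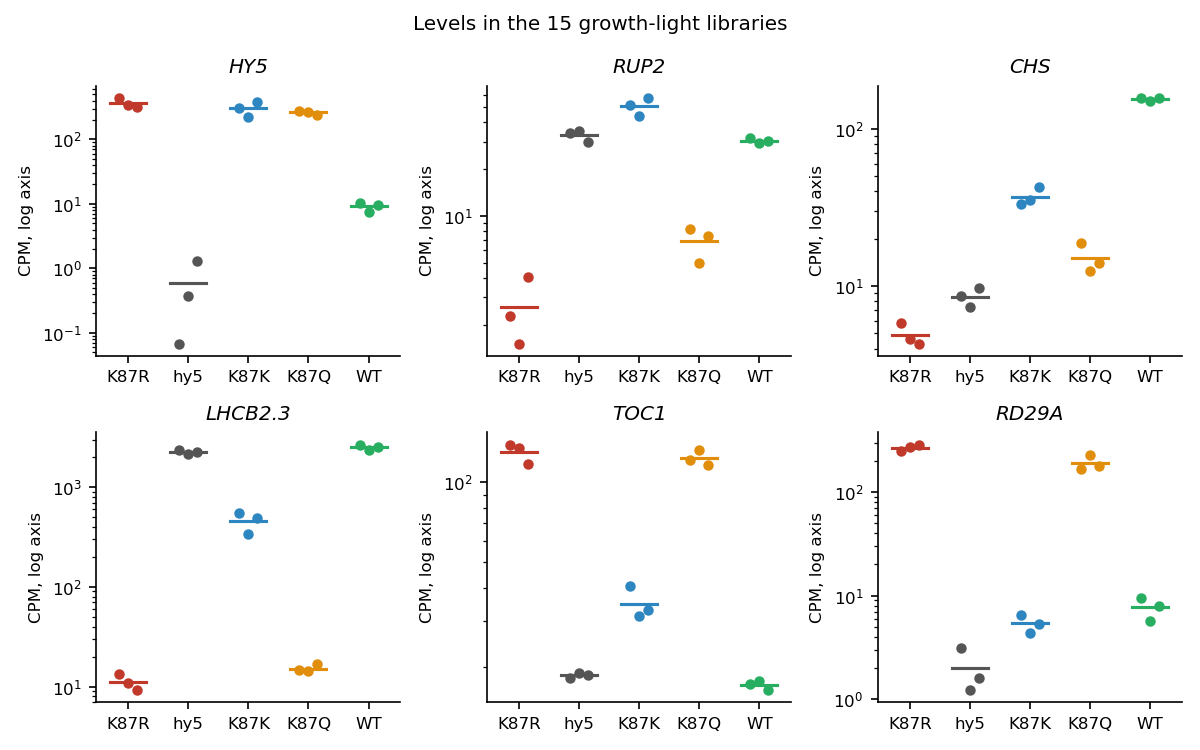
Levels of HY5, RUP2, CHS, LHCB2.3, TOC1 and RD29A in CPM on log axes, with 1 point per growth-light library and a bar at the mean of each group of 3. HY5 lies near 365 CPM in K87R and below 1.4 CPM in every hy5 library. RUP2, CHS and LHCB2.3 are lower and TOC1 and RD29A higher in all K87R libraries than in any hy5 library.

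The K87R and hy5 seedlings differed across 57.4% of the genes tested. Most genes of light harvesting, the photosystems, shade and auxin response and cell wall loosening fell in K87R, and most evening clock genes, cold and abscisic acid genes and seed maturation genes rose, with the counts given list by list below. With total counts as library sizes the medians of the falling lists stayed below 0. That scaling moves the log2 fold changes of K87R over hy5 up, so it could not have turned the medians of the rising lists. At an adjusted p under 0.05, 5874 genes (29.8% of those tested) were higher in K87R and 5425 (27.6%) lower. With a tested change of more than 1 on the log2 scale, 1615 genes (8.21%) were higher and 1982 (10.1%) lower. The CPM of the groups did not overlap for 34.2% of the genes with K87R higher and 30.2% with K87R lower. When the spread was estimated from all 21 libraries, 4526 genes were called, 2238 higher and 2288 lower. The growth-light shares are the background for the main counts of every list below: 29.8% higher, 27.6% lower and 57.4% in all. List counts with total counts stand against 67.1% higher and 9.86% lower. List counts with the spread of 21 libraries stand against the 2238 and 2288 genes called there, and the number tested in that fit is not given here.

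The split depends on the scaling. With total counts as library sizes, 13199 genes (67.1%) were higher in K87R and 1941 (9.86%) lower, and the median log2 fold change of all genes tested was 1.05, against 0.10 with TMM. All 5874 genes called higher with TMM were called higher there too, whereas 1941 of the 5425 called lower stayed lower and 1113 called genes were called with the opposite sign. The 10% of genes with the highest levels had a median log2 fold change of -0.67 (0.29 with total counts) and the 10% with the lowest levels 0.49 (1.43 with total counts). The shortest 10% of the gene models had a median of -0.12 and the longest 10% of 0.48. Of the 111 windows of 1 Mb with 20 or more tested genes, between 23.1% and 69.5% of the genes were called.

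**Figure D2:**
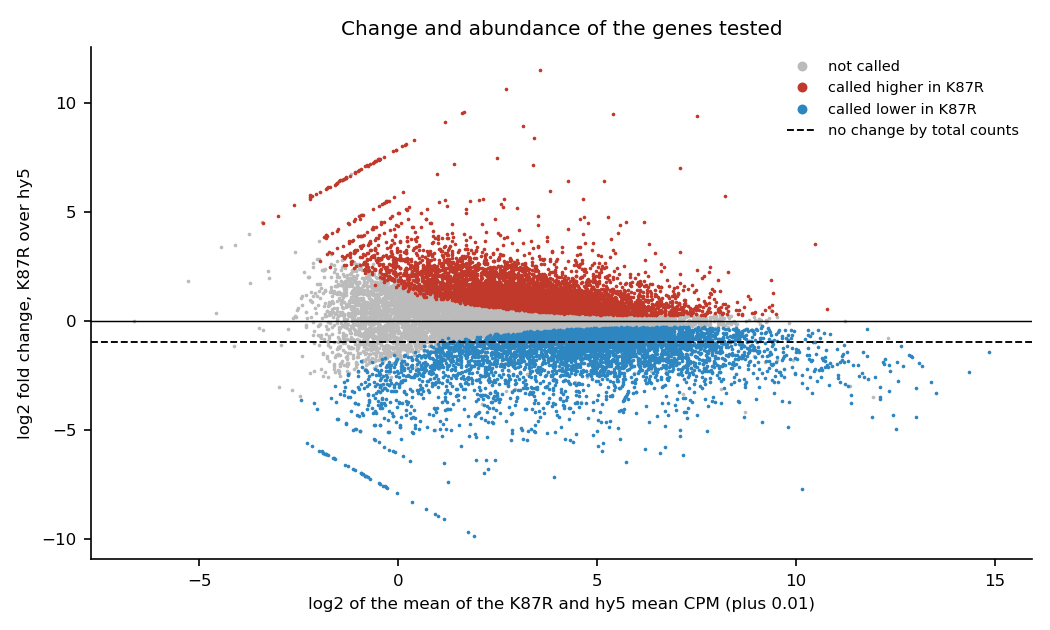
Log2 fold change of K87R over hy5 (vertical axis) against the log2 of the mean CPM of the 2 genotypes (horizontal axis), 1 point per tested gene. The 5874 genes called higher in K87R are red, the 5425 called lower blue and the others grey. The dashed line lies 0.96 below 0, where a gene with no change by total counts would fall, and the most abundant genes lie mostly below 0.

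K87R was also compared with the other growth-light groups, in comparisons that share the K87R libraries. Against K87K, 4929 genes (25.0%) were higher and 5008 (25.4%) lower in K87R, 50.5% in all, and 3050 were called with the spread of 21 libraries. Against K87Q, 2298 (11.7%) were higher and 3074 (15.6%) lower, 27.3% in all. With the spread of all 21 libraries edgeR called 0 genes against K87Q, with 1538 at an unadjusted p under 0.05, while DESeq2 called 5799 on the 15 libraries, so the differences from K87Q given below rest on the growth-light spread. The K87Q calls numbered 3379 without K87Q replicate 1 and 3746 without K87R replicate 2. Against WT, 4885 (24.8%) were higher and 4838 (24.6%) lower, 49.4% in all, and 2938 were called with the spread of 21 libraries. The hy5 libraries differed from WT in 2393 genes (12.2%) that were higher and 2225 (11.3%) lower, with 44 calls by the spread of 21 libraries and, with total counts, 1309 higher and 3876 lower. For some of the genes named below, values in K87K, K87Q or WT are given beside those of K87R and hy5. The list medians of K87R over K87Q were -0.63 (light-harvesting), -0.32 (photosystem), 0.22 (shade and auxin) and -0.11 (cell wall loosening). They were 0.03 (evening clock), -0.16 (cold and abscisic acid) and -0.29 (seed maturation), against -0.002 over all genes tested.

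Among HY5 itself and the regulators of HY5 protein and signalling, 6 of 20 measured genes rose, HY5 being 1 of the 6, and 6 fell in K87R, shares near those of all genes (median log2 -0.11, and 0.85 with total counts, where 14 were higher). The pair of UV-B feedback repressors RUP1 and RUP2, WD40 proteins that inactivate the UVR8 photoreceptor and are described as HY5 targets, were among those that fell. RUP2 had 2.28, 1.51 and 4.02 CPM in K87R, against 33.8, 35.1 and 29.6 CPM in hy5. All K87R libraries lay below all hy5 libraries (log2 fold change -3.65 ± 0.24, adjusted p = 7.55e-14). RUP2 averaged 50.5 CPM in K87K, 6.89 CPM in K87Q and 30.4 CPM in WT, and K87R was below K87Q (log2 fold change -1.40 ± 0.24, adjusted p = 9.35e-05). RUP1 averaged 2.22 ± 0.294 CPM in K87R and 93.7 ± 3.24 CPM in hy5 (log2 fold change -5.40 ± 0.47, adjusted p = 1.92e-06). The blue-light receptor gene CRY1 had 116 ± 12.3 CPM in K87R and 256 ± 13.7 CPM in hy5 (log2 fold change -1.14 ± 0.11, adjusted p = 2.95e-10), a fall that was lost with total counts (log2 -0.18). COP1, which encodes the ligase subunit that binds HY5, rose to 24.6 ± 1.43 CPM in K87R, against 10.6 ± 1.05 CPM in hy5 (log2 fold change 1.22 ± 0.17, adjusted p = 3.29e-07), a level close to the 24.7 CPM of WT.

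Of 12 B-box genes measured, 7 fell and BBX20 alone rose (median log2 -1.74, -0.78 with total counts). These zinc finger proteins bind HY5 or COP1 and raise or lower HY5 activity. BBX28, a repressor that lowers HY5 binding to DNA, had 8.92, 12.4 and 12.2 CPM in K87R, against 206, 202 and 188 CPM in hy5. No K87R library reached 10% of the lowest hy5 library (log2 fold change -4.13 ± 0.15, adjusted p = 2.95e-21). It averaged 157 CPM in K87K, 16.1 CPM in K87Q and 159 CPM in WT. BBX24 and BBX25, both described as negative partners of HY5, fell, with log2 fold changes of -2.05 ± 0.11 for BBX24 (adjusted p = 3.72e-17) and -2.77 ± 0.13 for BBX25 (adjusted p = 5.28e-19). BBX16 (log2 fold change -3.04 ± 0.20, adjusted p = 4.67e-15) fell too. BBX32 fell as well (log2 fold change -2.19 ± 0.46, adjusted p = 1.37e-04). BBX20, a positive cofactor, had 4.37, 8.19 and 6.28 CPM in K87R and 3.46, 3.48 and 3.66 CPM in hy5 (log2 fold change 0.85 ± 0.26, adjusted p = 0.00657). For BBX21 (log2 fold change -0.24 ± 0.13, adjusted p = 0.127) and BBX22 (log2 fold change -0.27 ± 0.14, adjusted p = 0.0893), also activators, the test was not passed. With total counts both were called higher, at a log2 of 0.72 for BBX21 and 0.68 for BBX22.

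Nearly all light-harvesting complex genes were lower in K87R. These nuclear genes encode the chlorophyll-binding antenna proteins of photosystem I (LHCA) and photosystem II (LHCB). Of 20 measured, 19 fell and the remaining one, LHCB1.4, did not pass the test (median log2 -2.35, -1.39 with total counts). With the spread of 21 libraries 8 of the 20 were called lower. Together they took 6.45% to 7.06% of the counts of a K87R library and 14.17% to 15.71% of a hy5 library. LHCB2.3 (AT3G27690, chr3:10255906-10257489, plus strand) had the lowest log2 fold change of the genes named here. The 250 bases before its annotated start (chr3:10255656-10255905, plus strand, TAIR10.1) are printed because LHCB2.3 carries 3 ACGT cores, in capitals, 1 of them within the G-box CACGTG that HY5 is known to bind.
LHCB2.3 promoter: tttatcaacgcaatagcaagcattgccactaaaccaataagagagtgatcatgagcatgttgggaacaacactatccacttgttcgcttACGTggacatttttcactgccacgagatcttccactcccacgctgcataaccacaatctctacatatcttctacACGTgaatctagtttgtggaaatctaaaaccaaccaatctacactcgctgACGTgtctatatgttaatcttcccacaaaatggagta

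LHCB2.3 had 13.3, 10.8 and 9.205 CPM in the K87R libraries, against 2352, 2168 and 2250.2 CPM in hy5. All K87R libraries were lower than all hy5 libraries (log2 fold change -7.68 ± 0.18, adjusted p = 3.05e-23). It averaged 463 ± 107 CPM in K87K, 15.2 ± 1.39 CPM in K87Q and 2512 ± 164 CPM in WT. The K87Q level was close to that of K87R, although the difference passed the test (log2 fold change -0.46 ± 0.14, adjusted p = 0.0161 for K87R over K87Q). Its paralogs fell as well. LHCB2.1 averaged 373 ± 45.01 CPM in K87R and 11326 ± 637 CPM in hy5 (log2 fold change -4.92 ± 0.27, adjusted p = 2.01e-08), and LHCB2.2 averaged 354 ± 34.5 CPM in K87R and 7343 ± 356 CPM in hy5 (log2 fold change -4.37 ± 0.25, adjusted p = 2.06e-08). Within the LHCB1 family the fold changes ranged widely. LHCB1.1 (log2 fold change -4.39 ± 0.31, adjusted p = 3.47e-07) and LHCB1.2 (log2 fold change -3.06 ± 0.26, adjusted p = 1.46e-06) fell, and so did LHCB1.3, which averaged 16453 ± 1252 CPM in K87R and 43152 ± 3305 CPM in hy5 (log2 fold change -1.39 ± 0.26, adjusted p = 8.32e-04, -0.43 and not called with total counts). LHCB1.4 had a log2 fold change of -0.75 ± 0.36 (adjusted p = 0.0987), and of 0.21 with total counts. LHCB1 and LHCB2 copies are nearly identical, so how reads were split among them is uncertain. Outside these families LHCB3 (log2 fold change -2.72 ± 0.10, adjusted p = 4.13e-21), LHCB5 (log2 fold change -1.91 ± 0.09, adjusted p = 2.66e-18), LHCA4 (log2 fold change -2.06 ± 0.09, adjusted p = 1.64e-19) and LHCA6 (log2 fold change -2.65 ± 0.12, adjusted p = 1.37e-18) fell.

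Of 43 genes of the photosystems, electron transport and the Calvin cycle, 42 fell and FNR2 alone rose (median log2 -1.88, -0.92 with total counts). With the spread of 21 libraries 22 were called lower. They took 6.92% to 7.07% of the counts of a K87R library and 15.3% to 16.0% of a hy5 library. RCA, which encodes Rubisco activase, had 2349, 2096 and 2149 CPM in K87R, against 21284, 21431 and 20845 CPM in hy5. No K87R library came near a hy5 library (log2 fold change -3.27 ± 0.10, adjusted p = 3.65e-23). RBCS1A, a gene for the Rubisco small subunit with close copies, averaged 6926 ± 428 CPM in K87R and 34826 ± 612 CPM in hy5 (log2 fold change -2.33 ± 0.09, adjusted p = 4.99e-21), and RBCS3B fell too (log2 fold change -2.77 ± 0.09, adjusted p = 3.83e-22). Ferredoxin FD2 (log2 fold change -2.48 ± 0.09, adjusted p = 5.56e-21) and the glyceraldehyde-3-phosphate dehydrogenase subunit GAPB (log2 fold change -2.56 ± 0.10, adjusted p = 3.52e-21) were among the members with the smallest adjusted p. FNR2, a leaf ferredoxin-NADP reductase, averaged 368 ± 8.24 CPM in K87R and 211 ± 6.85 CPM in hy5 (log2 fold change 0.80 ± 0.11, adjusted p = 2.75e-07).

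Chlorophyll synthesis showed 19 lower and 3 higher genes of 26, with a median log2 of -0.86 that turned to 0.10 with total counts. With total counts 9 were called lower and 10 higher, and with the spread of 21 libraries 10 were lower. GUN5, the H subunit of magnesium chelatase, had 327, 236 and 246 CPM in K87R, against 2121, 2293 and 2278 CPM in hy5. The groups did not overlap (log2 fold change -3.05 ± 0.12, adjusted p = 2.08e-20). HEMA1, the glutamyl-tRNA reductase that starts the pathway (log2 fold change -2.63 ± 0.13, adjusted p = 5.14e-18), CRD1, a subunit of the cyclase (log2 fold change -2.61 ± 0.10, adjusted p = 6.87e-21), and CAO, which makes chlorophyll b (log2 fold change -2.34 ± 0.11, adjusted p = 1.37e-18), also fell. The GOLDEN2-LIKE factors, which activate LHC and chlorophyll genes, went in opposite directions. GLK1 had 332, 222 and 207 CPM in K87R and 86.2, 75.1 and 78.99 CPM in hy5 (log2 fold change 1.66 ± 0.19, adjusted p = 6.63e-07), while GLK2 had 92.5, 84.7 and 88.8 CPM in K87R and 302, 284 and 282 CPM in hy5 (log2 fold change -1.71 ± 0.12, adjusted p = 3.57e-14). For each factor the libraries of K87R and hy5 did not overlap. GLK1 averaged 59.4 CPM in K87K, 427 CPM in K87Q and 80.7 CPM in WT. PORA, the dark form of protochlorophyllide reductase, was at 0 counts in hy5 and averaged 0.788 CPM in K87R, at least 8.54-fold higher, with 3 counts in the 3 hy5 libraries together taken as the floor.

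Photoprotection and carotenoid genes followed, with 19 of 23 lower and 3 higher (median log2 -1.17, and -0.21 with total counts, where 11 were lower). The beta-carotene hydroxylase BCH2 averaged 3.12 ± 0.724 CPM in K87R and 41.8 ± 1.46 CPM in hy5 (log2 fold change -3.72 ± 0.18, adjusted p = 5.10e-18), and BCH1 fell too (log2 fold change -2.41 ± 0.13, adjusted p = 2.91e-17). ZEP, which turns zeaxanthin back to violaxanthin, fell (log2 fold change -2.35 ± 0.11, adjusted p = 1.79e-18), whereas VDE, which runs the reverse reaction under strong light, rose (log2 fold change 0.64 ± 0.15, adjusted p = 7.33e-04). OHP1, a small LHC-like protein of photosystem II assembly, averaged 21.9 ± 5.21 CPM in K87R and 175 ± 4.84 CPM in hy5 (log2 fold change -3.00 ± 0.13, adjusted p = 3.00e-19), and the tocopherol cyclase VTE1 fell too (log2 fold change -2.72 ± 0.14, adjusted p = 7.56e-18). Plastid-encoded transcripts mostly lack the poly-A tails that poly-T selection relies on. Of 102 plastid-encoded genes measured, 41 were called lower, with psbL at 1.14, 0.634 and 0.937 CPM in K87R and 13.4, 9.97 and 100.5 CPM in hy5 (log2 fold change -5.56 ± 1.22, adjusted p = 0.00264). The plastid share ranged from 0.104% to 1.41% among K87R libraries and from 0.649% to 4.15% among hy5 libraries, and its part in the result was not tested.

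Flavonoid enzyme genes, the classic readout of HY5 activity, fell or did not pass the test on the TMM scale. Of 13 measured, 5 fell and the other 8 were not called (median log2 -0.84, and 0.12 with total counts, where 3 were higher and 3 lower). With the spread of 21 libraries 3 were lower. CHS, chalcone synthase (AT5G13930, chr5:4488476-4490264, plus strand), makes the first committed step. Its 250 bases before the start (chr5:4488226-4488475, plus strand, TAIR10.1) also hold 3 ACGT cores, in capitals, 1 of them in a CACGTG, and are printed to be set beside LHCB2.3, because the levels of these genes across the 5 groups differed.
CHS promoter: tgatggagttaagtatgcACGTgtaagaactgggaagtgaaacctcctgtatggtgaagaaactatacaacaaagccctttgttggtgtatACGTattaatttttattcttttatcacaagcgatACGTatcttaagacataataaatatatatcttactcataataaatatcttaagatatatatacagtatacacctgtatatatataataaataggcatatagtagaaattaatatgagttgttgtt

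CHS had 5.79, 4.58 and 4.299 CPM in K87R, against 8.62, 7.33 and 9.67 CPM in hy5. All K87R values were below all hy5 values (log2 fold change -0.83 ± 0.17, adjusted p = 1.36e-04), but the sign was the opposite with total counts (0.13). Both genotypes were far under WT, where CHS averaged 154 ± 3.29 CPM, with a log2 fold change of -5.00 ± 0.17 for K87R over WT (adjusted p = 5.73e-22) and of -4.17 ± 0.16 for hy5 over WT (adjusted p = 5.62e-19). K87K averaged 36.97 ± 4.95 CPM and K87Q 15.1 ± 3.35 CPM. FLS1, flavonol synthase, was 1.57 ± 0.288 CPM in K87R, 2.83 ± 1.005 CPM in hy5 and 16.9 ± 1.93 CPM in WT, and K87R against hy5 did not pass the test (log2 fold change -0.84 ± 0.37, adjusted p = 0.0528, 0.12 with total counts). Genes of flavonoid modification fell. They were F3'H (log2 fold change -3.15 ± 0.47, adjusted p = 8.35e-07), the glucosyltransferase UGT78D2 (log2 fold change -2.08 ± 0.17, adjusted p = 2.70e-12) and the O-methyltransferase OMT1, at 97.7 ± 4.67 CPM in K87R and 331 ± 11.5 CPM in hy5 (log2 fold change -1.76 ± 0.11, adjusted p = 1.94e-15). MYB12, the flavonol activator, had 0, 0.244 and 0.221 CPM in K87R and 0, 0 and 0.0939 CPM in hy5, too few counts to compare. F3H, UGT89C1 and MYB113 were listed at 0 counts in all 15 growth-light libraries, and that is not read as absence of expression.

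Among flavonoid regulators 5 of 10 fell and 2 rose (median log2 -0.80, and 0.15 with total counts, where 3 were higher and 2 lower). The nitrate-induced repressors of anthocyanin synthesis LBD37 (log2 fold change -1.86 ± 0.10, adjusted p = 9.00e-17), LBD38 (log2 fold change -2.12 ± 0.13, adjusted p = 1.09e-15) and LBD39 (log2 fold change -1.14 ± 0.12, adjusted p = 1.09e-09) fell, as did the repressor MYBL2 (log2 fold change -1.18 ± 0.13, adjusted p = 2.31e-09) and the WD40 activator TTG1 (log2 fold change -1.17 ± 0.13, adjusted p = 1.55e-09). With total counts the calls of LBD39 (log2 -0.18), MYBL2 (-0.22) and TTG1 (-0.21) were lost, and 2 regulators were lower there and 2 with the spread of 21 libraries. In the general phenylpropanoid pathway, which supplies flavonoids, sinapate esters and lignin, 10 of 20 genes fell and 4 rose (median log2 -0.70, and 0.25 with total counts, where 9 were higher and 9 lower). PAL2, phenylalanine ammonia-lyase, had 66.9 ± 3.16 CPM in K87R and 255 ± 6.32 CPM in hy5 (log2 fold change -1.93 ± 0.11, adjusted p = 5.09e-16). FAH1, ferulate 5-hydroxylase, also fell (log2 fold change -2.14 ± 0.11, adjusted p = 8.80e-18), as did the lignin pathway genes HCT, CYP98A3 and CAD4 with log2 fold changes of -1.47, -1.76 and -1.68. MYB4, a repressor of the pathway, rose to 5.81 ± 1.91 CPM in K87R, against 1.54 ± 0.536 CPM in hy5 (log2 fold change 1.91 ± 0.37, adjusted p = 5.29e-05).

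Across all promoters the HY5 core motif was about as frequent in called genes as in all genes. CACGTG, searched in the 250 bases before the start on both strands, was in 9.01% of the promoters of genes called higher, 7.68% of those called lower and 7.58% of the 19180 tested genes with a promoter. ACGT, which every CACGTG contains, was in 44.5% of those called higher, 46.9% of those called lower and 44.7% of all. Of the 20 light-harvesting genes, 5 (25.0%) held CACGTG and 10 held ACGT. A match describes these letters only and is not a binding site.

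Clock transcripts split by their usual time of day. The plant clock runs as a chain of repressors in which CCA1, LHY and their RVE and LNK partners peak in the morning and TOC1 and the evening complex (ELF3, ELF4, LUX) later. In K87R 8 of 9 evening genes rose (median log2 2.80) and 10 of 14 morning genes fell (median log2 -2.35, -1.39 with total counts). This assignment to phases was made after the values were seen. Of all 26 clock genes, 13 rose and 11 fell.

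TOC1 (AT5G61380, chr5:24674963-24678550, plus strand), a pseudo-response regulator that represses CCA1 and LHY, is shown by the 250 bases before its start (chr5:24674713-24674962, plus strand, TAIR10.1). Capitals mark AAAATATCT, the evening element, read on either strand and found once. This motif was added after the values were seen.
TOC1 promoter: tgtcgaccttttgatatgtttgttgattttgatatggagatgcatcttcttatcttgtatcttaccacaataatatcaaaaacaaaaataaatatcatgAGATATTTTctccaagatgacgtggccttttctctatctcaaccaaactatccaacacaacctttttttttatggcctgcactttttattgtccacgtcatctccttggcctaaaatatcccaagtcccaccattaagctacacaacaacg

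TOC1 had 139, 135 and 117 CPM in K87R, against 18.18, 18.99 and 18.8 CPM in hy5. K87R was clearly above hy5 with no overlap (log2 fold change 2.80 ± 0.13, adjusted p = 3.68e-19). TOC1 averaged 34.9 ± 4.904 CPM in K87K, 123.3 ± 8.404 CPM in K87Q and 17.2 ± 0.721 CPM in WT, and its difference between K87R and K87Q did not pass the test (log2 fold change 0.08 ± 0.11, adjusted p = 0.646). COR27, an evening-phased regulator that binds HY5 and COP1, had 30, 37.6 and 47.7 CPM in K87R, against 0.475, 0.752 and 0.0939 CPM in hy5 (log2 fold change 6.41 ± 0.31, adjusted p = 2.99e-18). Its means were 0.858 CPM in K87K, 39.5 CPM in K87Q and 0.332 CPM in WT, so only K87R and K87Q were above 1 CPM. COR28, its close homologue, rose with it (log2 fold change 3.69 ± 0.34, adjusted p = 6.72e-11). Among all tested genes AAAATATCT was in 2.52% of promoters, in 3.09% of those called higher and 2.23% of those called lower. It was in 5 of the 9 evening genes (55.6%) and in none of the 14 morning genes, 7 of which held CACGTG.

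The evening complex genes rose together. ELF4 had 38.5, 49.5 and 59.6 CPM in K87R, against 1.76, 2.35 and 1.22 CPM in hy5, and the groups were well separated (log2 fold change 4.79 ± 0.26, adjusted p = 1.33e-15). ELF3 rose to 43.7 ± 3.37 CPM in K87R, against 8.32 ± 1.37 CPM in hy5 (log2 fold change 2.39 ± 0.16, adjusted p = 1.77e-14), LUX to 103 ± 4.02 CPM in K87R, against 31.03 ± 2.17 CPM in hy5 (log2 fold change 1.74 ± 0.11, adjusted p = 6.66e-15), and BOA, a LUX homologue, to 31.5 ± 5.003 CPM in K87R, against 3.42 ± 0.755 CPM in hy5 (log2 fold change 3.19 ± 0.22, adjusted p = 1.95e-14). PRR3, which stabilises TOC1, averaged 21.2 ± 1.08 CPM in K87R with 2 counts in all of the hy5 libraries, a ratio of 383 (95% counting interval 106 to 3164). FKF1, a blue-light receptor of flowering control, rose (log2 fold change 3.39 ± 0.21, adjusted p = 1.11e-15), as did PRR5 (log2 fold change 1.15 ± 0.21, adjusted p = 1.63e-05). GI, also an evening gene, had 103, 73.3 and 70.2 CPM in K87R and 68.6, 70.9 and 85.3 CPM in hy5. Those ranges overlapped and the difference was not called (log2 fold change 0.13 ± 0.14, adjusted p = 0.418). With total counts all 9 evening genes were called higher, GI included.

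Most morning genes fell. CCA1 had 2.28, 1.32 and 3.42 CPM in K87R, against 21.2, 19.8 and 19.1 CPM in hy5, and LHY 1.14, 0.878 and 0.551 CPM in K87R, against 4.003, 5.27 and 6.01 CPM in hy5. Both fell without overlap. For CCA1 this was a log2 fold change -3.11 ± 0.49, adjusted p = 2.04e-04, and for LHY a log2 fold change -2.60 ± 0.32, adjusted p = 2.61e-08. LNK2, a coactivator recruited by RVE8, fell, with 24.4 ± 0.533 CPM in K87R, 301 ± 5.98 CPM in hy5 and 359 ± 37.7 CPM in WT (log2 fold change -3.63 ± 0.14, adjusted p = 5.47e-21 for K87R over hy5). LNK3 (log2 fold change -3.39 ± 0.17, adjusted p = 7.09e-18), LNK4 (log2 fold change -3.00 ± 0.13, adjusted p = 1.28e-19) and PRR9 (log2 fold change -2.30 ± 0.42, adjusted p = 2.95e-05) fell as well. The exceptions among morning genes were CDF1 (log2 fold change 2.35 ± 0.26, adjusted p = 2.52e-09), RVE2 (log2 fold change 2.99 ± 0.23, adjusted p = 5.28e-11) and PRR7 (log2 fold change 0.32 ± 0.14, adjusted p = 0.0436), which rose, and LNK1 (log2 fold change 0.09 ± 0.17, adjusted p = 0.673), which did not pass. Since the clock moves transcript levels through the day and no sampling time is given, the time of sampling and the genotype cannot be told apart for these genes.

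**Figure D3:**
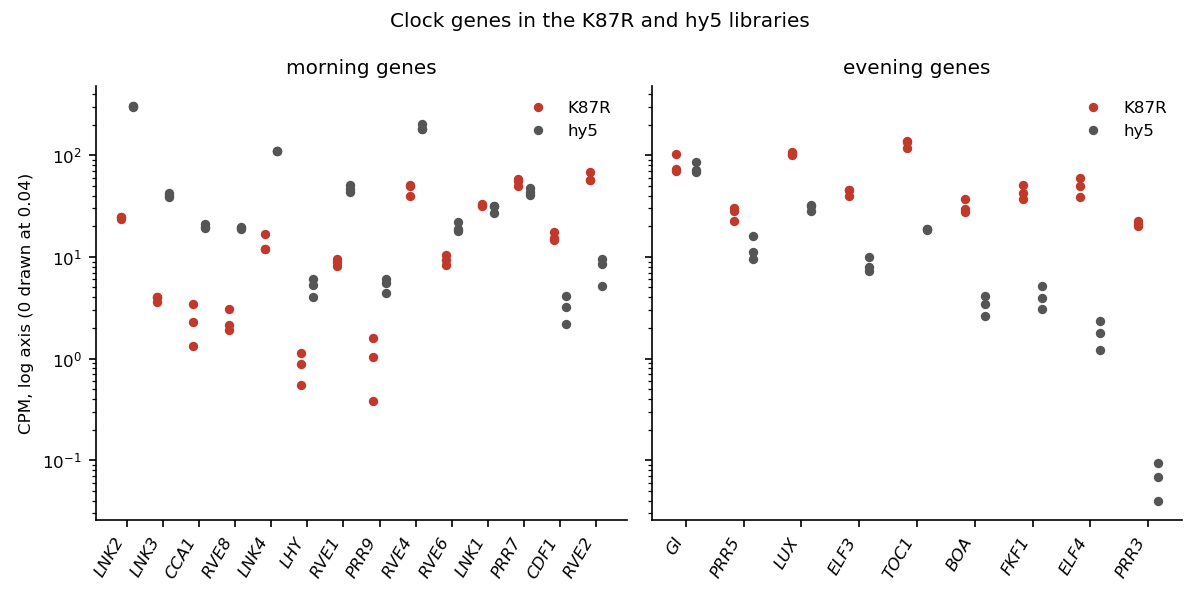
Levels of morning genes (left) and evening genes (right) in CPM on a log axis, with 1 point per library, K87R in red left of hy5 in grey and genes ordered by log2 fold change. Of the morning genes 10 of 14 are lower in K87R, and 8 of 9 evening genes are higher, with GI overlapping.

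Growth genes were mostly lower in K87R. Light restrains elongation largely through the PIF factors, whose targets include auxin and shade genes and the SAUR genes of rapid growth. In K87R 32 of 46 such genes fell and 3 rose (median log2 -1.35, and -0.40 with total counts, where 20 were lower). IAA17, an auxin response repressor, had 19.4, 20.9 and 24.4 CPM in K87R, against 127, 124 and 112 CPM in hy5, a clear separation (log2 fold change -2.49 ± 0.12, adjusted p = 6.26e-18). HAT1, a homeodomain gene of the shade response, fell (log2 fold change -2.26 ± 0.15, adjusted p = 4.47e-15), and so did BAS1, which inactivates brassinosteroids (log2 fold change -2.52 ± 0.19, adjusted p = 2.68e-13). SAUR20 and SAUR21, growth genes with near-identical copies, also fell. SAUR20 averaged 1.15 ± 0.241 CPM in K87R and 14.4 ± 1.06 CPM in hy5 (log2 fold change -3.68 ± 0.29, adjusted p = 6.73e-13), and SAUR21 averaged 3.56 ± 1.04 CPM in K87R and 27.5 ± 1.88 CPM in hy5 (log2 fold change -2.91 ± 0.22, adjusted p = 3.32e-13). The PIF genes themselves did not move together. PIF4 rose (log2 fold change 0.28 ± 0.11, adjusted p = 0.0333) and PIF5 fell (log2 fold change -0.91 ± 0.12, adjusted p = 1.24e-07), although its log2 fold change was 0.05 with total counts.

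Cell wall loosening genes were lower too. Expansins and xyloglucan endotransglucosylases (XTH) let the wall extend, and 21 of 31 fell and 4 rose (median log2 -1.48, -0.52 with total counts). XTH23 had 1.42, 1.22 and 1.05 CPM in K87R, against 45.8, 43.2 and 41.2 CPM in hy5. The gap was wide (log2 fold change -5.16 ± 0.19, adjusted p = 3.40e-21), and K87R also lay below K87Q, where XTH23 averaged 3.62 ± 0.589 CPM (log2 fold change -1.57 ± 0.21, adjusted p = 2.64e-06). TCH4, an XTH induced by touch and brassinosteroids, averaged 14.1 ± 2.01 CPM in K87R and 238 ± 7.99 CPM in hy5 (log2 fold change -4.07 ± 0.14, adjusted p = 9.86e-22). EXPA1 averaged 55.8 ± 5.02 CPM in K87R and 552 ± 10.6 CPM in hy5 (log2 fold change -3.31 ± 0.11, adjusted p = 3.51e-22), and EXPA8 (log2 fold change -3.51 ± 0.11, adjusted p = 1.66e-22) and XTH24 (log2 fold change -2.60 ± 0.12, adjusted p = 2.20e-18) fell. Among the 4 that rose was EXPA15 (log2 fold change 1.496 ± 0.22, adjusted p = 7.51e-07).

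Genes that report low sugar were also lower in K87R. Of 30, 19 fell and 5 rose (median log2 -1.11, -0.15 with total counts). EXL1, an EXORDIUM-like gene of carbon starvation, had 3.798, 3.36 and 4.85 CPM in K87R, against 309, 267 and 276 CPM in hy5. No other list member had a lower log2 fold change (log2 fold change -6.14 ± 0.16, adjusted p = 5.81e-25). DIN10, a raffinose synthase induced in the dark, averaged 284 ± 45 CPM in K87R and 1997 ± 37.7 CPM in hy5 (log2 fold change -2.82 ± 0.11, adjusted p = 2.84e-20), and ASN1, asparagine synthetase, averaged 111 ± 9.85 CPM in K87R and 753 ± 11.3 CPM in hy5 (log2 fold change -2.77 ± 0.11, adjusted p = 1.26e-20). The monosaccharide transporter STP1 (log2 fold change -3.29 ± 0.12, adjusted p = 1.88e-21) and TPS11 of the trehalose-phosphate family (log2 fold change -2.89 ± 0.11, adjusted p = 1.13e-20) fell. STP1 was also higher in hy5 than in WT (1267 ± 14.8 CPM in hy5, 494 ± 14.1 CPM in WT, log2 fold change 1.36 ± 0.11, adjusted p = 1.24e-10). BAM3, a chloroplast beta-amylase that degrades starch, rose instead to 163 ± 3.19 CPM in K87R, against 32.7 ± 3.304 CPM in hy5 (log2 fold change 2.32 ± 0.15, adjusted p = 6.25e-15). Of 10 senescence genes, 5 fell and 3 rose, with a median whose sign turned with total counts (-0.26 and 0.70), where 6 were higher and 2 lower. With the spread of 21 libraries 2 senescence genes were lower. SAG21 (log2 fold change -2.51 ± 0.15, adjusted p = 1.84e-14) and the NAC factor NAP (log2 fold change -3.79 ± 0.64, adjusted p = 6.11e-06) fell, while PAO (log2 fold change -0.58 ± 0.13, adjusted p = 1.85e-04, 0.38 with total counts) and WRKY6 (log2 fold change -0.75 ± 0.19, adjusted p = 0.00137, 0.21 with total counts) depended on the scaling. SAG13 was higher, with 3 counts in all of hy5 and a ratio of 23.7 (95% counting interval 7.87 to 117).

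Cold and abscisic acid (ABA) response genes rose. Abscisic acid and low temperature both induce protective proteins through ABF and CBF factors, and CBF proteins bind elements with a CCGAC core. In K87R 18 of 25 rose and 3 fell (median log2 1.71), with their summed level at 2613 ± 159.8 CPM in K87R and 1242 ± 29.2 CPM in hy5. RD29A (AT5G52310, chr5:21240717-21243644, plus strand), a marker of both pathways, is shown by the 250 bases before its start (chr5:21240467-21240716, plus strand, TAIR10.1), with its 3 CCGAC cores in capitals, a motif added after the values were seen.
RD29A promoter: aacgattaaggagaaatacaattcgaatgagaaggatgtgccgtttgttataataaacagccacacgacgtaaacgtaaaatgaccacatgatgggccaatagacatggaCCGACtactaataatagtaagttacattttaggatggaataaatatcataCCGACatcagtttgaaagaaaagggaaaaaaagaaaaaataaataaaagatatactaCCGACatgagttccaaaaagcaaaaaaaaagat

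RD29A had 248, 271 and 286 CPM in K87R, against 3.12, 1.22 and 1.597 CPM in hy5. The K87R libraries were all above 240 CPM and the hy5 libraries all below 4 CPM (log2 fold change 7.02 ± 0.26, adjusted p = 3.34e-14). The gene averaged 5.39 ± 1.04 CPM in K87K, 192 ± 33.1 CPM in K87Q and 7.71 ± 1.92 CPM in WT. COR15B, a chloroplast protein that protects membranes in freezing, had 64.8, 86.1 and 104 CPM in K87R, against 0.0679, 0 and 0.282 CPM in hy5 (log2 fold change 9.48 ± 0.46, adjusted p = 7.79e-11). COR15A, its close homologue, averaged 52.1 ± 7.74 CPM in K87R and 2.29 ± 0.664 CPM in hy5 (log2 fold change 4.51 ± 0.23, adjusted p = 2.40e-17). COR6.6, nearly identical to KIN1, reached 580.3 ± 72.2 CPM in K87R, against 10.8 ± 1.56 CPM in hy5 (log2 fold change 5.74 ± 0.22, adjusted p = 1.95e-14). The dehydrins COR47 (log2 fold change 1.98 ± 0.11, adjusted p = 2.17e-16) and ERD10 (log2 fold change 3.13 ± 0.17, adjusted p = 5.75e-17) rose, as did RD29B (log2 fold change 4.199 ± 0.38, adjusted p = 4.52e-11). Of the CBF factors, CBF3 was at 0 counts in hy5 and averaged 2.27 CPM in K87R, at least 28.1-fold higher. CBF2 (log2 fold change -1.03 ± 0.37, adjusted p = 0.0179, -0.07 with total counts) and GOLS1, a galactinol synthase (log2 fold change -1.60 ± 0.14, adjusted p = 2.03e-11, -0.64 with total counts), fell, and the CBF2 call was lost with total counts. CCGAC was in 7 of the 25 promoters (28.0%) and ACGT in 20 (80.0%), against 13.0% and 44.7% of all promoters.

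Seed maturation genes were higher in K87R, at low levels. Storage proteins, oleosins and late embryogenesis proteins normally disappear after germination, and 11 of 17 measured rose and DOG1 alone fell (log2 fold change -1.54 ± 0.33, adjusted p = 1.89e-04, -0.59 and not called with total counts; list median log2 3.02, 2.80 with genes at 0 in hy5 set to their bound). Their summed level was 86.2 ± 10.4 CPM in K87R and 37.3 ± 4.82 CPM in hy5. ABI5, the bZIP factor of ABA response in seeds, had 5.13, 6.68 and 7.11 CPM in K87R, against 0.271, 0.094 and 0.188 CPM in hy5, with no overlap (log2 fold change 4.98 ± 0.54, adjusted p = 1.42e-09). The 12S globulin gene CRA1 had 1.899, 4.68 and 9.26 CPM in K87R and 1 count in all of hy5, a ratio of 208 (95% counting interval 37.03 to 8244), and CRU3 had 0.949, 3.51 and 9.04 CPM in K87R and 0 counts in hy5, at least 60.1-fold higher. Both varied widely among the K87R libraries and were low in the first of them. LEA4-5 (log2 fold change 2.80 ± 0.44, adjusted p = 2.71e-06), PER1 (log2 fold change 3.02 ± 0.41, adjusted p = 1.41e-07) and M17 (log2 fold change 3.81 ± 0.50, adjusted p = 7.12e-08) rose. Among 12 genes of seed oil use, 6 rose (2 with the spread of 21 libraries) and 4 fell. The summed level of these 12 was lower in K87R, at 1414.5 ± 30.5 CPM, than in hy5, at 2404.9 ± 18.4 CPM. The glyoxylate enzyme ICL rose (log2 fold change 1.29 ± 0.14, adjusted p = 1.24e-09) and the oil lipase SDP1 fell (log2 fold change -1.28 ± 0.13, adjusted p = 1.52e-10), while CSY2 was lower with TMM and near 0 with total counts (log2 fold change -0.96 ± 0.13, adjusted p = 1.43e-07, 0.01 with total counts).

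Heat shock genes rose too, 13 of 20 against 3 that fell (median log2 1.46). HSFA2, the heat-inducible transcription factor, had 24.4, 24.7 and 16.9 CPM in K87R, against 0.95, 0.94 and 1.22 CPM in hy5, with no overlap (log2 fold change 4.40 ± 0.33, adjusted p = 9.07e-13). The chaperones HSP101 (40.01 ± 5.64 CPM in K87R, 4.79 ± 0.712 CPM in hy5, log2 fold change 3.05 ± 0.19, adjusted p = 1.93e-15), HSP90.1 (log2 fold change 3.26 ± 0.18, adjusted p = 6.49e-17) and HSP17.8 (log2 fold change 3.13 ± 0.27, adjusted p = 1.06e-11) rose with it. HSFA2 averaged 0.553 CPM in K87K, 28.6 CPM in K87Q and 2.24 CPM in WT. HSA32, which prolongs heat memory, fell (log2 fold change -1.89 ± 0.25, adjusted p = 7.65e-08).

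Defence genes of the jasmonate and ethylene branch stood at the head of the ranking by log2 fold change. The plant defensins PDF1.2a, PDF1.2b, PDF1.2c and PDF1.3 are small antifungal peptides induced by both hormones together, and their copies share reads, so values for single copies are uncertain. PDF1.3 had 18.1, 27.02 and 26.4 CPM in K87R and 0 counts in hy5, at least 299-fold higher. PDF1.2c had 7.22, 13.7 and 18.3 CPM in K87R and 0 counts in hy5, at least 168-fold higher. PDF1.2a had 14.3, 17.5 and 20.5 CPM in K87R and 1 count in all of hy5, a ratio of 646 (95% counting interval 116 to 25543). PDF1.3 averaged 0.195 CPM in K87K, 28.4 CPM in K87Q and 2.67 CPM in WT. Over the 36 genes of the list 15 rose and 8 fell (median log2 0.28, and 1.23 with total counts, where 30 were higher), and 9 were higher with the spread of 21 libraries. CORI3, a jasmonate-induced aminotransferase-like gene, rose to 71.1 ± 12.7 CPM in K87R, against 0.848 ± 0.65 CPM in hy5 (log2 fold change 6.43 ± 0.46, adjusted p = 1.14e-07), and the vegetative storage protein VSP1 rose (log2 fold change 2.04 ± 0.24, adjusted p = 9.34e-09). The jasmonate repressors JAZ3 (log2 fold change -2.14 ± 0.14, adjusted p = 5.95e-15) and JAZ9 (log2 fold change -1.99 ± 0.14, adjusted p = 1.96e-14) fell. MYC2 was listed at 0 counts in all growth-light libraries.

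Salicylate genes were called about as often as all genes, with 5 of 17 higher and 4 lower (median log2 0.40, and 1.35 with total counts, where 14 were higher), and 1 was higher with the spread of 21 libraries. ICS1, which makes the salicylate precursor, fell (log2 fold change -1.75 ± 0.29, adjusted p = 4.44e-06), and PAD4 was lower with TMM (log2 fold change -1.12 ± 0.23, adjusted p = 9.06e-05) but lost its call with total counts (-0.17), while EDS1 (log2 fold change 1.42 ± 0.31, adjusted p = 2.07e-04) and WRKY18 (log2 fold change 2.23 ± 0.40, adjusted p = 1.32e-05) rose. RBOHD was lower with TMM (log2 fold change -0.90 ± 0.17, adjusted p = 4.59e-05) and not with total counts (0.06). Of 24 glucosinolate genes 6 rose and 7 fell, again near the background, and the median turned sign with total counts (-0.09 and 0.87). With the spread of 21 libraries 2 were lower. The activators MYB28 of the aliphatic branch (48.1 ± 5.08 CPM in K87R, 13.3 ± 1.95 CPM in hy5, log2 fold change 1.85 ± 0.17, adjusted p = 4.20e-11) and MYB34 of the indolic branch (log2 fold change 1.31 ± 0.19, adjusted p = 5.14e-07) rose. The chain elongation genes IPMI2 (log2 fold change -1.17 ± 0.17, adjusted p = 3.23e-07, -0.21 with total counts) and IPMDH1 (log2 fold change -1.14 ± 0.19, adjusted p = 8.50e-06, -0.18 with total counts) fell with TMM scaling, and both calls were lost with total counts. The indolic enzyme CYP83B1 rose (log2 fold change 0.78 ± 0.11, adjusted p = 4.09e-07).

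Root genes were mostly lower. Of 21 root markers 14 fell (median log2 -1.48, -0.52 with total counts), with 8 lower by the spread of 21 libraries, and their summed level was 1673 ± 80.3 CPM in K87R and 3219.9 ± 15.4 CPM in hy5. The lowest log2 fold changes of the list were those of root hair genes. PRP3, a proline-rich wall protein of root hairs, had 2.66, 1.71 and 3.14 CPM in K87R, against 126, 154 and 152 CPM in hy5, far apart (log2 fold change -5.87 ± 0.23, adjusted p = 1.35e-15). LRX1, a leucine-rich extensin of root hairs, had 1.71, 1.61 and 1.43 CPM in K87R, against 49.9, 59.99 and 65.4 CPM in hy5 (log2 fold change -5.21 ± 0.29, adjusted p = 5.46e-12). EXPA7, a root hair expansin (log2 fold change -4.39 ± 0.31, adjusted p = 3.60e-13), the phosphate transporter PHT1;1 (log2 fold change -3.54 ± 0.15, adjusted p = 1.02e-19), the iron transporter IRT1 (log2 fold change -2.96 ± 0.19, adjusted p = 3.82e-15) and the aquaporin TIP2;3 (log2 fold change -1.92 ± 0.14, adjusted p = 1.26e-12) fell. Of the 15 largest falls, 4 were in hydroxyproline-rich wall genes, EXT6, EXT10, EXT12 and HRGP1, with log2 fold changes of -5.59, -5.71, -5.96 and -6.04, and their repeats make reads hard to assign. The Casparian strip gene CASP1 fell (log2 fold change -2.13 ± 0.19, adjusted p = 1.38e-09), and the suberin gene ASFT did not pass the test (log2 fold change -0.09 ± 0.18, adjusted p = 0.682). With total counts ASFT was called higher (log2 0.87). The share of root tissue in the samples was not tested.

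Nitrate and ammonium genes fell in 12 of 17 cases and NRT1.7 rose (median log2 -1.46, -0.50 with total counts), and 7 were called lower with the spread of 21 libraries. The nitrate transceptor NRT1.1 had 113, 92.6 and 109.5 CPM in K87R, against 289, 286 and 293 CPM in hy5 (log2 fold change -1.46 ± 0.11, adjusted p = 8.91e-14). Nitrite reductase NIR1 (log2 fold change -1.98 ± 0.10, adjusted p = 6.26e-18), the chloroplast glutamine synthetase GLN2 (log2 fold change -1.95 ± 0.09, adjusted p = 2.75e-18), GLN1;2 (log2 fold change -2.19 ± 0.11, adjusted p = 2.42e-18) and the glutamate synthase GLU1 (log2 fold change -1.67 ± 0.11, adjusted p = 2.04e-14) fell. NRT1.7, which moves nitrate out of old leaves, averaged 101 ± 7.88 CPM in K87R and 32.9 ± 2.27 CPM in hy5 (log2 fold change 1.61 ± 0.12, adjusted p = 1.41e-13). Reactive oxygen genes fell in 10 of 18 cases and rose in 3, and their median turned sign with total counts (-0.63 and 0.33), where 8 were higher and 6 lower. With the spread of 21 libraries 6 reactive oxygen genes were lower. CAT2, the light-phased leaf catalase of photorespiration, had 272, 249 and 231 CPM in K87R, against 2311, 2558 and 2519 CPM in hy5, and fell without overlap (log2 fold change -3.30 ± 0.10, adjusted p = 9.32e-23). CAT3, the evening-phased catalase, rose (log2 fold change 0.54 ± 0.11, adjusted p = 6.23e-05). FSD1 (log2 fold change -1.99 ± 0.10, adjusted p = 3.08e-18), CSD2 (log2 fold change -1.58 ± 0.14, adjusted p = 9.04e-12) and TAPX (log2 fold change -1.27 ± 0.11, adjusted p = 2.53e-12) fell, encoding superoxide dismutases and a thylakoid ascorbate peroxidase.

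Among 20 genes of iron, phosphate, copper and sulphur status 8 rose and 9 fell (median log2 -0.43, and 0.52 with total counts, where 11 were higher and 4 lower). FRO2, the ferric reductase of roots, averaged 1.499 ± 0.184 CPM in K87R and 13.5 ± 0.856 CPM in hy5 and fell (log2 fold change -3.16 ± 0.28, adjusted p = 1.74e-11). The iron store ferritin FER1 (log2 fold change -2.07 ± 0.11, adjusted p = 6.69e-17), the iron-sensing ligase BTS (log2 fold change 1.58 ± 0.13, adjusted p = 1.19e-12), the copper transporter COPT2 (log2 fold change -3.56 ± 0.16, adjusted p = 2.58e-19) and the sulphate transporter SULTR1;2 (log2 fold change -1.44 ± 0.13, adjusted p = 2.36e-11) had the other smallest adjusted p-values of the list.

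**Figure D4:**
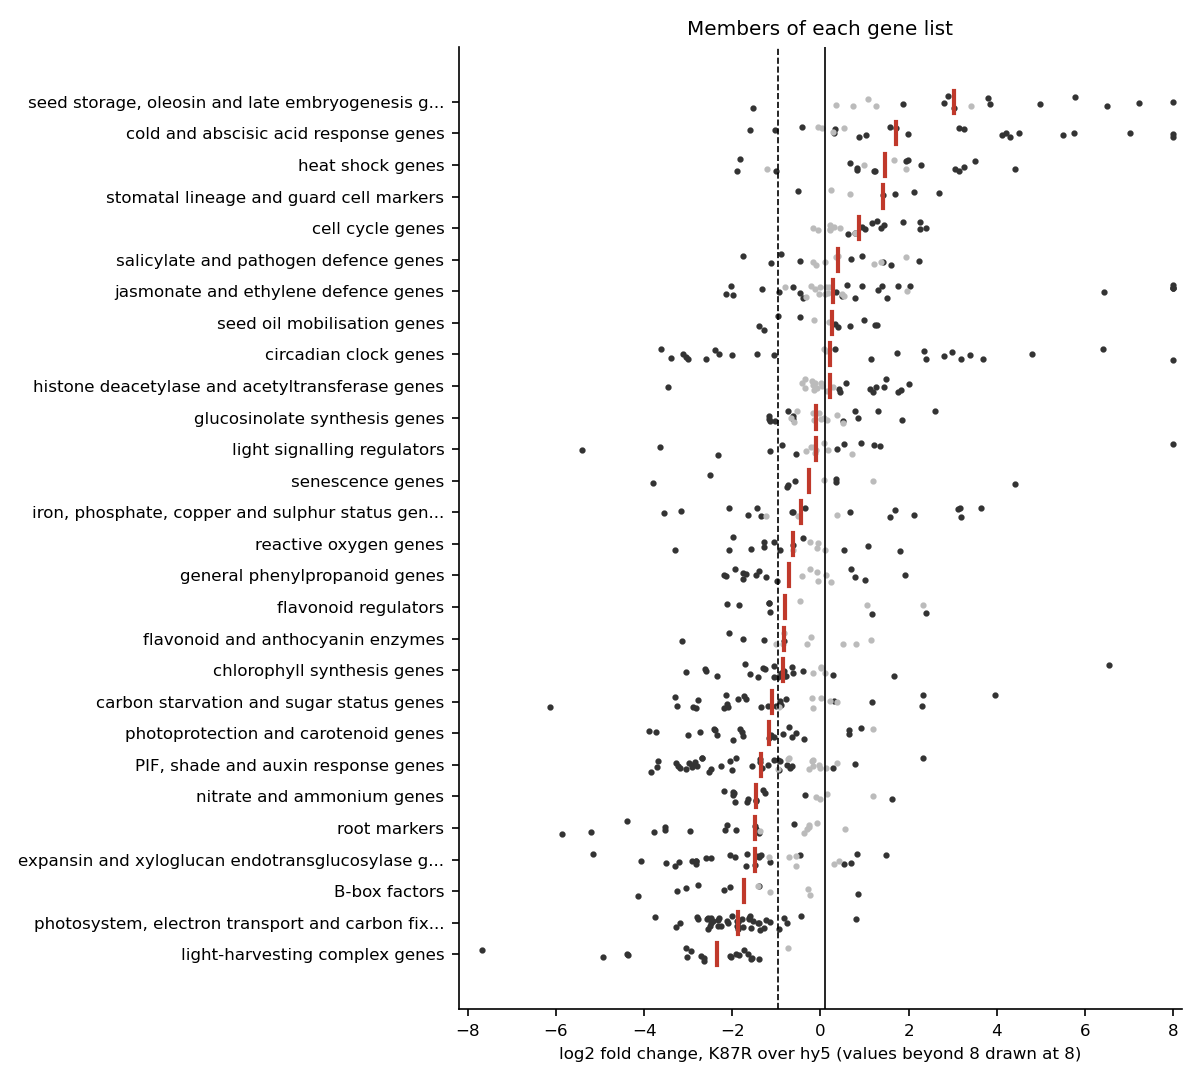
Log2 fold change of K87R over hy5 for every tested member of the 28 lists, with dark points called at an adjusted p under 0.05, grey points not called and a red bar at each list's median. The solid line is the median of all tested genes (0.10) and the dashed line the point of no change by total counts, 0.96 below 0. Light-harvesting genes have the lowest median (-2.35) and seed maturation genes the highest (3.02).

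The 15 largest falls and 15 largest rises, taken among 2296 falling and 1735 rising genes with a symbol, at least 10 CPM in the higher group and no overlap, held members not covered above. G3Pp2, a glycerol-3-phosphate permease homologue, had 0.19, 0.293 and 0.11 CPM in K87R, against 30.4, 26.1 and 33.2 CPM in hy5 (log2 fold change -7.15 ± 0.63, adjusted p = 5.03e-07). LEA3, a late embryogenesis protein that, unlike most measured genes of the seed list, fell, had 2.28, 0.926 and 0.772 CPM in K87R, against 116, 98.3 and 97.96 CPM in hy5 (log2 fold change -6.43 ± 0.26, adjusted p = 1.25e-17). NDA1, an alternative NAD(P)H dehydrogenase of mitochondria regulated by light, had 5.98, 6.14 and 8.87 CPM in K87R, against 277, 273 and 249.9 CPM in hy5 (log2 fold change -5.24 ± 0.16, adjusted p = 3.05e-23). All 3 were separated from hy5 without overlap, as the rule that selected them required. RHS18, a root hair specific gene, fell as well (log2 fold change -5.05 ± 0.30, adjusted p = 1.20e-15).

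On the rising side, GSTF6, a glutathione transferase of stress responses, had 117, 156 and 144 CPM in K87R, against 6.11, 5.45 and 6.199 CPM in hy5 (log2 fold change 4.55 ± 0.18, adjusted p = 2.55e-19). HIS1-3, a drought-inducible linker histone, had 37.8, 47.9 and 50.5 CPM in K87R, against 1.696, 1.504 and 2.16 CPM in hy5 (log2 fold change 4.67 ± 0.23, adjusted p = 5.21e-18). COR413IM1, a cold-regulated inner chloroplast membrane protein, averaged 75.1 ± 6.61 CPM in K87R and 2.64 ± 1.62 CPM in hy5 (log2 fold change 4.77 ± 0.35, adjusted p = 3.84e-08), and the transporter ABCG27 averaged 12.3 ± 1.66 CPM in K87R and 0.212 ± 0.29 CPM in hy5 (log2 fold change 5.61 ± 0.52, adjusted p = 1.58e-10). All K87R libraries exceeded all hy5 libraries for these genes, as the rule that selected them required. In K87Q the means were 82.7 CPM for GSTF6, 23.9 CPM for HIS1-3, 80.4 CPM for COR413IM1 and 11.3 CPM for ABCG27. In K87K they were 7.39 CPM for GSTF6, 11.9 CPM for HIS1-3, 2.84 CPM for COR413IM1 and 0.486 CPM for ABCG27. Of these, K87R differed from K87Q in GSTF6 (log2 fold change 0.75 ± 0.15, adjusted p = 3.89e-04) and HIS1-3 (log2 fold change 0.93 ± 0.18, adjusted p = 2.24e-04).

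**Figure D5:**
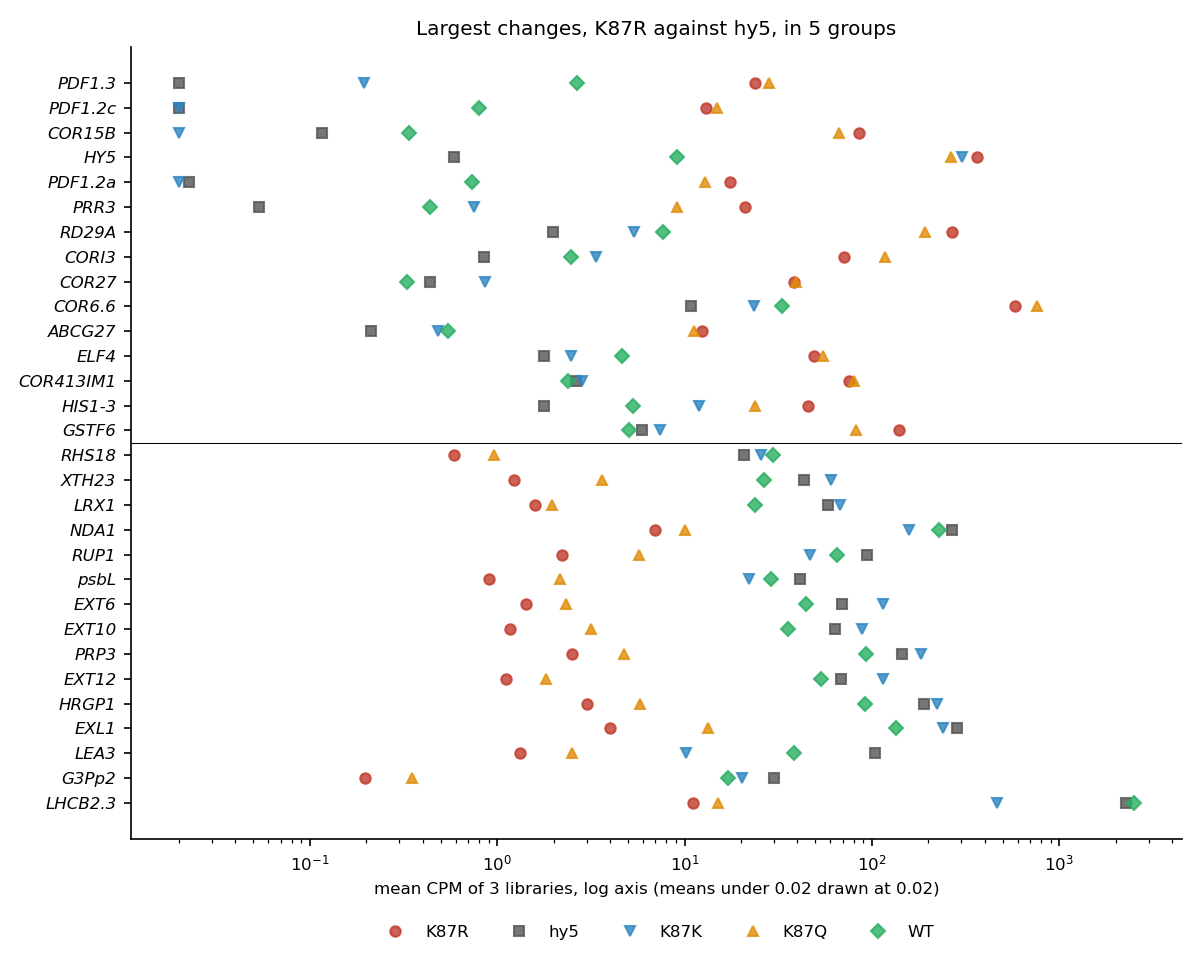
Mean CPM over 3 libraries on a log axis for the 15 genes with the largest rises (top) and the 15 with the largest falls (bottom) in K87R against hy5, with 1 symbol per growth-light group. For LHCB2.3 the means are 11.1 CPM in K87R, 2257 CPM in hy5, 463 CPM in K87K, 15.2 CPM in K87Q and 2512 CPM in WT, and for RD29A 268.7 CPM in K87R, 1.98 CPM in hy5, 5.39 CPM in K87K, 192 CPM in K87Q and 7.71 CPM in WT.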

How the data were processed

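RNA of Arabidopsis seedlings was sequenced after poly-T selection, per the labels' protocols. The deposited table holds raw counts per gene as the authors made them, and no strand setting is stated. The submitters' processing notes name build TAIR10 and, without their roles, featureCounts 1.5.0-p3, HISAT2 2.0.5 and fastp among the tools, besides StringTie 1.3.3b. Columns were joined to samples by the names in the labels, with 0 left unused.

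The 15 growth-light libraries were fitted together by edgeR 4.0.16 under R 4.3.3, with its filterByExpr default for groups, TMM scaling and robust quasi-likelihood F tests with a mean per group and Benjamini-Hochberg adjustment over all genes tested, at 0.05. Every adjusted p is from this fit unless another tool is named. CPM were computed here from the counts and the TMM sizes. A CPM mean stands with its SD over 3 libraries, and a log2 fold change with its SE (its size divided by the square root of F, median 0.22). Counting intervals are exact at 95% and, like the floor of 3 counts over a group, cover counting error only. On simulated counts (18724 genes), 54% of 100 genes changed by 1 on the log2 scale and 92% of 100 changed by 2 were called, with 4 false calls. All groups were simulated from the hy5 means, and only these genes were changed, evenly up and down. The simulation therefore does not cover changes in as many genes as seen here, or false calls that come from the scaling.

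Members, the 28 lists (667 genes, 666 in the table) and the tests were chosen with earlier results of these data known. Named genes are HY5, the 15 largest changes each way, up to 5 members of each list with the smallest adjusted p, and further members chosen after their values were seen. Symbols came from the table or the reference, and sequences from the RefSeq assembly TAIR10.1, whose coordinates matched 32520 of the 32548 shared genes. No library was left out. Alternatives were other scalings and filters, the spread of 6 or of 21 libraries, DESeq2 1.42.0, the replicate number as a block, a log2 change over 1, no organelle genes and each library left out in turn.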

Additional observations from a re-analysis of the deposited data

How the results depend on the processing

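Calls of K87R against hy5 stayed within 1.5 times of 5874 higher and 5425 lower genes with RLE scaling (5497 higher, 5709 lower), upper-quartile scaling (7041 and 4623), no filter (5817 and 5404), a filter of 1 CPM in 3 libraries (5836 and 5387), the spread of 6 libraries (5857 and 5550), DESeq2 (5659 and 5811), no organelle genes (5862 and 5430) and any of the 6 libraries left out (10178 to 10778 calls). Replicate numbers did not pair the K87R and hy5 libraries (correlations of same-numbered deviations -0.048, 0.041 and -0.078), and other pairs of groups were not checked this way. Summed mitochondrial levels in replicates 1, 2 and 3 were alike in hy5 (88.1, 2455 and 418 CPM) and K87K (62.8, 2053 and 408 CPM). They were 161, 130 and 162 CPM in K87R, 603, 292 and 465 CPM in K87Q and 64.5, 80.9 and 124 CPM in WT. Summed plastid-encoded levels, in the same order, were 8719, 13197 and 56307 CPM in hy5 and 5497, 12247 and 44176 CPM in K87K. They were 9772, 703 and 888 CPM in K87R, 1552, 943 and 1576 CPM in K87Q and 9345, 10840 and 19142 CPM in WT. The cause of these patterns was not tested. With the replicate block 11375 genes were called. With the spread of all 21 libraries 4526 genes were called (2238 higher, 2288 lower), against K87K 3050 (1357, 1693), against WT 2938 (1199, 1739), hy5 against WT 44 (23, 21), and against K87Q 0 (0, 0) by edgeR, where 1538 passed an unadjusted p under 0.05 and DESeq2 called 5799 on 15 libraries. A tested change over 1 gave 3597 (1615, 1982). With total counts K87R was higher in 13199 genes and lower in 1941 against hy5, 10913 and 2248 against K87K, 5074 and 939 against K87Q, 11884 and 1965 against WT, and hy5 against WT 1309 and 3876. Leave-one-out calls against K87Q were 3379 (without K87Q replicate 1) to 5964, 1420 to 2609 higher and 1959 to 3355 lower, with 3746 and 1524 higher without K87R replicate 2.

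With total counts these log2 fold changes turned positive: CHS 0.13, PAO 0.38, WRKY6 0.21, RBOHD 0.058, CSY2 0.0063, TMM 0.45, FLS1 0.12, LHCB1.4 0.21 and PIF5 0.049. So did those of ASFT (0.87, and 0.061 with upper-quartile scaling), BBX21 (0.72), BBX22 (0.68) and HDA15 (0.60), which were not called on the TMM scale. Of these genes PAO, TMM, ASFT, BBX21, BBX22 and HDA15 were called higher with total counts, and the others were not called there. GI ranged from -0.060 (without K87R replicate 1) to 0.24 (without K87R replicate 3). List counts with total counts were higher 14 (light signalling), 14 (salicylate), 30 (jasmonate), 7 (stomatal), 19 (cell cycle) and 23 (deacetylases and acetyltransferases), and lower 3 (flavonoid enzymes), 2 (flavonoid regulators), 11 (photoprotection), 9 (chlorophyll), 20 (shade and auxin), 2 (senescence), 0 (glucosinolate, by edgeR, also 0 at an unadjusted p under 0.05, with DESeq2 not run at this scaling), 6 (reactive oxygen) and 4 (nutrient). With the spread of 21 libraries they were higher 1 (salicylate), 9 (jasmonate), 2 (seed oil), 2 (stomatal), 2 (cell cycle) and 4 (deacetylases and acetyltransferases), and lower 3 (flavonoid enzymes), 2 (flavonoid regulators), 8 (light-harvesting), 22 (photosystem), 10 (chlorophyll), 2 (senescence), 2 (glucosinolate), 6 (reactive oxygen), 7 (nitrate) and 8 (root). Lists of the first set given by their lower calls had these higher calls with total counts: 3 (flavonoid enzymes), 3 (flavonoid regulators), 7 (photoprotection), 10 (chlorophyll), 8 (shade and auxin), 6 (senescence), 15 (glucosinolate), 8 (reactive oxygen) and 11 (nutrient). The scaling shift accounts for the first set by construction, and the cause of the second was not tested. The shallowest K87R library, at 7283290 counts, limits the precision of genes under about 1 CPM.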

Other observations

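Of 20 cell division genes, 12 rose in K87R against hy5 (29.8% of all tested genes did), and the median log2 fold change was 0.87 (1.82 with total counts). The median was 0.23 for K87R over WT, with 4 called higher, and -0.63 for hy5 over WT, with 6 called lower. Their summed level was 284 ± 27.3 CPM in K87R, 193 ± 11.2 CPM in hy5 and 257 ± 13.6 CPM in WT. With total counts 19 of the 20 were higher in K87R than in hy5, where 67.1% of all tested genes were. With the spread of 21 libraries 2 of the 20 were higher, where 2238 genes in all were. MCM2, a subunit of the replication helicase, had 5.98, 7.75 and 7.44 CPM in K87R, against 0.882, 1.79 and 1.88 CPM in hy5, without overlap (log2 fold change 2.25 ± 0.38, adjusted p = 5.61e-06). KNOLLE, the syntaxin of the cell plate, had 10.4, 8.73 and 13.3 CPM in K87R, against 3.596, 3.01 and 2.16 CPM in hy5, and was also above K87Q, where it averaged 4.21 ± 2.101 CPM (log2 fold change 1.88 ± 0.33, adjusted p = 1.44e-05 for K87R over hy5 and log2 fold change 1.37 ± 0.31, adjusted p = 0.00143 for K87R over K87Q). The cyclin genes CYCB1;1 (log2 fold change 2.40 ± 0.59, adjusted p = 8.31e-04), CYCB1;2 (log2 fold change 1.36 ± 0.26, adjusted p = 3.68e-05) and CYCD3;1 (log2 fold change 1.45 ± 0.22, adjusted p = 1.40e-06) rose, as did TSO2, a ribonucleotide reductase subunit (log2 fold change 0.63 ± 0.14, adjusted p = 2.03e-04). Of 7 stomatal lineage genes 4 rose (7 with total counts, 2 with the spread of 21 libraries). FAMA, which ends the lineage as guard cells form, had 7.79, 8.24 and 8.38 CPM in K87R, against 3.05, 1.32 and 1.03 CPM in hy5 (log2 fold change 2.13 ± 0.36, adjusted p = 5.66e-06), and SPCH, which starts it, had 3.798, 3.02 and 1.82 CPM in K87R, against 1.02, 0.376 and 1.22 CPM in hy5 (log2 fold change 1.69 ± 0.56, adjusted p = 0.00996). EPF2 (log2 fold change 2.69 ± 0.77, adjusted p = 0.00348) and the guard cell channel KAT1 (log2 fold change 1.41 ± 0.42, adjusted p = 0.0049) rose too, while TOO MANY MOUTHS (TMM) fell (log2 fold change -0.50 ± 0.20, adjusted p = 0.0319) and had a log2 fold change of 0.45 with total counts.

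Of 24 genes for histone deacetylases and acetyltransferases, enzyme families that also act on other proteins, 11 rose (45.8%, against 29.8% of all tested genes) and 12 were not called. HAF2 alone fell (log2 fold change -3.47 ± 0.71, adjusted p = 1.25e-04, -2.50 with total counts). The list median was near that of all tested genes (log2 0.21 against 0.10, and 1.17 against 1.05 with total counts). With total counts 23 were higher, where 67.1% of all tested genes were, and with the spread of 21 libraries 4. HD2A, of the plant-specific HD2 deacetylase family, had 37.8, 39.3 and 38.9 CPM in K87R, against 9.77, 8.74 and 10.1 CPM in hy5 (log2 fold change 2.02 ± 0.18, adjusted p = 9.68e-12). HD2B had 89.9, 87 and 87.6 CPM in K87R, against 28.7, 27.3 and 22.3 CPM in hy5 (log2 fold change 1.75 ± 0.14, adjusted p = 1.25e-12). Neither gene's groups overlapped. HD2D (log2 fold change 1.82 ± 0.19, adjusted p = 6.93e-10) and the acetyltransferase genes HAC1 (log2 fold change 1.196 ± 0.21, adjusted p = 4.12e-05) and HAG2 (log2 fold change 1.43 ± 0.23, adjusted p = 2.10e-06) rose. HDA15, a deacetylase that has been described as a partner of HY5, did not pass the test (29.1 ± 5.401 CPM in K87R, 37.1 ± 3.38 CPM in hy5, log2 fold change -0.36 ± 0.19, adjusted p = 0.118). With total counts it was called higher (log2 0.60). HDA15, named here after its values were seen, averaged 0.0289 ± 0.0501 CPM in K87K, 19.5 ± 6.47 CPM in K87Q and 20.5 ± 4.23 CPM in WT, so the K87K libraries stood apart from the other growth-light groups at this gene.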
